A study of Homo sapiens with 6 samples.

Results

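Collagen chains were followed across 6 expression arrays of the human osteosarcoma lines KHOS and U-2OS. The members were all probe sets that the annotation of the Affymetrix U133 Plus 2.0 array assigns to a single gene symbol of the form COL, number, A, number. The rule found 112 of 54613 probe sets, which stand for 43 of 19775 genes. By class, 11 genes encode fibrillar chains, 6 encode basement membrane chains of type IV, and 26 encode chains of other types. Each line had 3 arrays, 1 for each treatment: control, the miRSelect pEP-miR-Null vector (miR-null) and the miRSelect pEP-miR-1 vector (miR-1). Vectors were transfected with Lipofectamine LTX and Plus Reagent for 48 hours, and TRIzol was used to extract total RNA. Every array carried RNA of 3 flasks mixed together, so a line and treatment had 1 array and no replicate. The labels give the control cells no vector and do not say if they met the transfection reagent.

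Collagens are matrix proteins built from 3 alpha chains, each with repeats of glycine every few residues, wound into a triple helix. Chains assemble in set combinations: type I fibrils hold the products of COL1A1 and COL1A2, type V fibrils those of COL5A1 and COL5A2, and the commonest type IV network those of COL4A1 and COL4A2. Bone matrix, which osteoblasts and osteosarcoma cells can lay down, is mostly type I collagen, and type V chains help to set the width of its fibrils. Type VI forms beaded microfilaments near cells, while FACIT collagens (fibril-associated chains with interrupted helices, such as XII and XVI) sit on the fibril surface.

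The values were log2 expression values made with RMA, an array method that corrects background and normalizes arrays to one another, so a difference of 1 is a 2-fold difference. Each gene was read from its probe set with the highest mean, and 12958 genes were tested, those with a mean at or above 5.11, the median over all probe sets. Of the 43 chains, 22 passed this level filter (6 fibrillar, 3 basement membrane and 13 of other types) and 21 did not. Array medians lay between 4.98 and 5.15. Of the osteoblast markers, RUNX2 and CDH11 were higher in KHOS by 4.32 and 5.65, SPP1 was the lower there with a difference of -2.28, and SP7, ALPL and IBSP were below the level filter. Among 11 markers of other cell types 7 passed the filter, and EPCAM, an epithelial adhesion molecule, was higher in KHOS by 2.89, from 8.43 to 8.70 there and from 5.49 to 5.96 in U-2OS. MYOD1, a muscle regulator, was the other one called, with a difference of -0.57 (adjusted p = 0.039). PECAM1, CD34, ACAN, MATN1 and DES, markers of endothelial, blood, cartilage and muscle cells, passed the filter at means from 5.51 to 6.03. None of these was called between the lines. PTPRC, CDH5, CDH1 and KRT5, other markers of blood, endothelial and epithelial cells, had means below the filter. The part of these markers in the chain differences was not tested.

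The sequences that follow place the chains in the genome and are shown because these members differed most between the lines or, for the type IV pair, share a starting region. COL4A1 (chr13:110148963-110307157, minus strand) and COL4A2 (chr13:110307284-110513209, plus strand) start head to head, with 126 bases between them at chr13:110307158-110307283. The other 4 sequences are the 250 bases before the start of COL6A3 (chr2:237414165-237414414), COL13A1 (chr10:69801656-69801905), COL12A1 (chr6:75206054-75206303) and COL16A1 (chr1:31704018-31704267), the chains with the 2 highest and 2 lowest line differences among those with an entry in the promoter table. All are from RefSeq, build GRCh38.p14, written 5′ to 3′ on the gene's strand, and on the plus strand for the shared COL4A1 to COL4A2 interval. Capitals mark a match on either strand to the TATA box (TATAAA), the CCAAT box (letters as named) or the GC box (GGGCGG).
COL4A1 to COL4A2: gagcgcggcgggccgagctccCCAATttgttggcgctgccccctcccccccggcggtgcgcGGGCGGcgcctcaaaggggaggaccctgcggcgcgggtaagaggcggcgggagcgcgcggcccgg
COL6A3: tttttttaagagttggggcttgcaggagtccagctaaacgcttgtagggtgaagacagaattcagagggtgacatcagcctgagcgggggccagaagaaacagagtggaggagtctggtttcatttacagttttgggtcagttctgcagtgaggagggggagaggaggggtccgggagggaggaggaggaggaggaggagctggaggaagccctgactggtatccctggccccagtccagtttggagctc
COL13A1: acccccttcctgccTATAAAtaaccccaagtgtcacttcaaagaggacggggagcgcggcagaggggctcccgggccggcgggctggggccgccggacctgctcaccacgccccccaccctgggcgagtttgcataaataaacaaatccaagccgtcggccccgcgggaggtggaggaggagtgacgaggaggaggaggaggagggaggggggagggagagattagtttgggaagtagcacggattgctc
COL12A1: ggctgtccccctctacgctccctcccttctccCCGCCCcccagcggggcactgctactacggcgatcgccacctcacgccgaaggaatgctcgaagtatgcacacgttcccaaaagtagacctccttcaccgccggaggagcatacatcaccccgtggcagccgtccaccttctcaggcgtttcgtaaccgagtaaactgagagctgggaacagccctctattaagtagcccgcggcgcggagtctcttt
COL16A1: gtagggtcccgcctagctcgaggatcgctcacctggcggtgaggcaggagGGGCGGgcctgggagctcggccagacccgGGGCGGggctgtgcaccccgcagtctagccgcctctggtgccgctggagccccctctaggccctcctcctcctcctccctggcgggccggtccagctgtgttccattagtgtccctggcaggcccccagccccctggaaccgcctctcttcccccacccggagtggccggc

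The COL4A1 to COL4A2 interval was 80.2% G and C, with 1 CCAAT and 1 GC box match. The COL6A3 window held no match to the 3 motifs, the COL13A1 window 1 TATA match, the COL12A1 window 1 GC box match and the COL16A1 window 2. Of 27305 RefSeq promoters of the same upstream length, 11.1% held the TATA box, 33% the CCAAT box and 42.3% the GC box. Among the 31 chains with a promoter entry, 4, 8 and 18 held them, in the same order. A match describes the letters and is not evidence of a site.

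The agent of the study was miR-1, whose mature 3p arm is encoded, among other places, at chr20:62554351-62554372 (plus strand, MIR1-1). Its sequence is shown with the seed, bases 2 to 8, in capitals, because the seed is the part that pairs with target messages.
miR-1-3p: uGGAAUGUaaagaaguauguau

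KHOS and U-2OS differed in the level of most collagen chains tested. Of the 22 chains tested, 18 differed between the lines at a Benjamini-Hochberg adjusted p below 0.05 in limma, 9 higher and 9 lower in KHOS. That is 81.8% of the chains, on a background of 54.8% of all genes tested (30.3% higher in KHOS, 24.5% lower). KHOS had more COL5A2, COL6A3, COL13A1, COL9A3 and COL4A5 message, and U-2OS had more COL12A1 and COL16A1 message. All U-2OS values of COL9A3 and COL4A5, and all KHOS values of COL16A1, lay below the level set by the filter. These chains passed it through the mean over both lines. The miR-null array also lay below that level for COL5A2 in U-2OS (4.98) and for COL12A1 in KHOS (5.07). Differences are compressed near the floor, so the folds given below for all these chains may be too small. All KHOS arrays lay above all U-2OS arrays for 9 chains (background 32.7% of genes) and all U-2OS arrays above all KHOS arrays for 8 (background 32.2%). Without the level filter 22 of 43 chains passed, where 41% of all 19775 genes did. With the mean over all probe sets of a gene 11 of 19 chains passed, close to the share of all genes, 55.5%. The median line difference over the 43 chains was -0.20 and that over all genes -0.12.

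**Figure D1:**
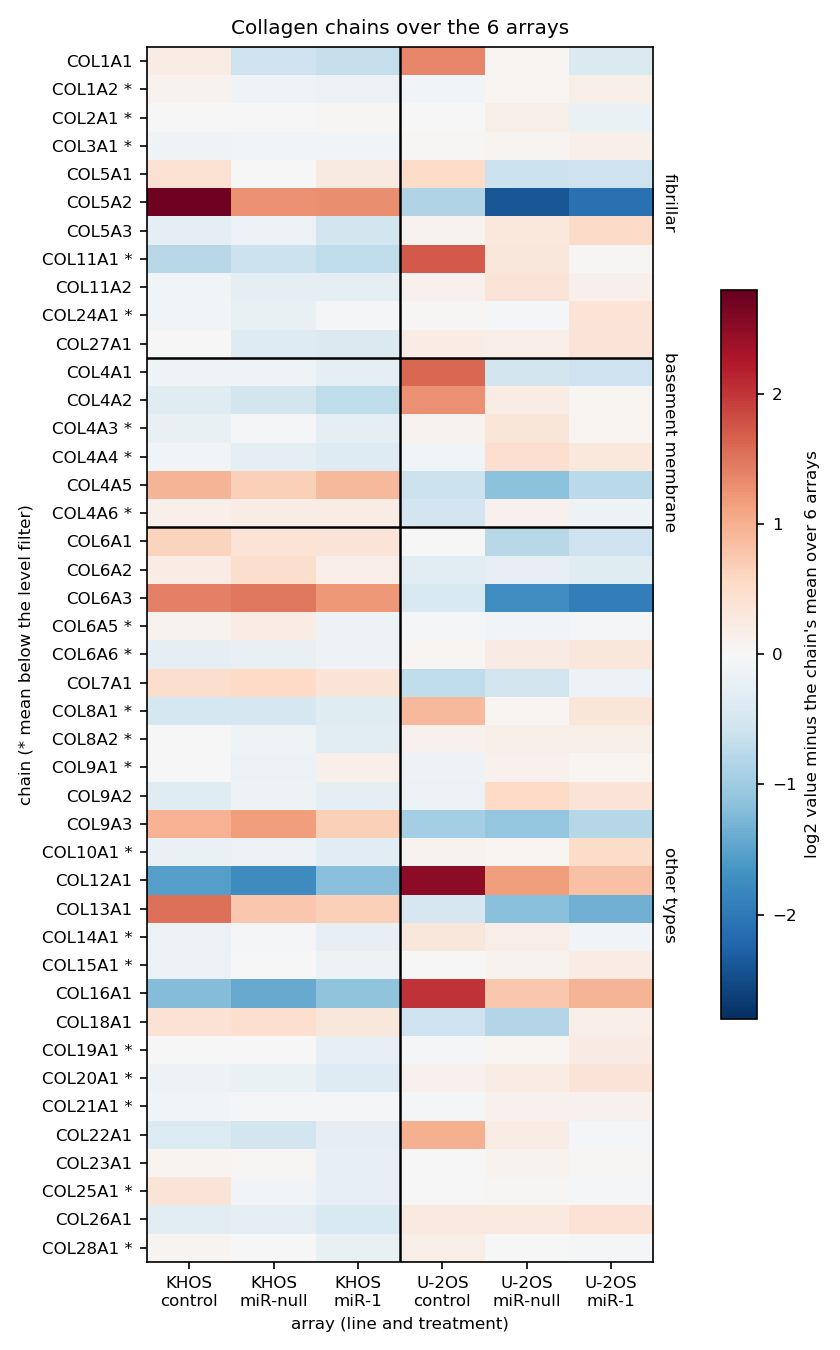
Heat map of the 43 chains (rows, by class) over the 6 arrays (columns, by line and treatment). Colour is the log2 value minus that chain's mean over the 6 arrays, and an asterisk marks the 21 chains below the level filter; the strongest colours are in the rows of COL5A2, COL12A1, COL16A1 and COL6A3.

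Among fibrillar chains, COL5A2, a type V chain, had the largest line difference of all chains tested. Its log2 values in KHOS were 10.12 in control, 8.66 with miR-null and 8.70 with miR-1, against 6.55, 4.98 and 5.30 in U-2OS. Every KHOS array lay above every U-2OS array. The fitted difference was 3.55 ± 0.14 (SE; 95% interval 3.20 to 3.89), or 11.7-fold higher in KHOS (adjusted p = 1.26e-05). A second COL5A2 probe set gave 3.42.

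COL5A1, the usual partner of COL5A2 in type V collagen, read 7.56, 7.14 and 7.39 over the KHOS arrays and 7.65, 6.55 and 6.56 over the U-2OS arrays, in the order control, miR-null, miR-1 that is kept below. The control arrays were nearly level and the vector arrays of KHOS were the higher, so the lines overlapped. The fitted difference of 0.45 ± 0.21 (95% interval -0.05 to 0.94) did not pass (adjusted p = 0.11). COL5A3, the third type V chain, read 5.93, 6.02 and 5.65 over the KHOS arrays and 6.27, 6.46 and 6.70 over the U-2OS arrays. It was lower in KHOS by a fitted -0.61 ± 0.18 (adjusted p = 0.030), with no overlap between the lines.

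COL1A1, the major chain of bone collagen, read 10.93, 10.14 and 10.07 over the KHOS arrays and 12.07, 10.78 and 10.30 over the U-2OS arrays. U-2OS was higher at each treatment, but both U-2OS vector arrays lay below the KHOS control array. The fitted difference was -0.67 ± 0.20, or 1.59-fold lower in KHOS (adjusted p = 0.030). COL1A2, which supplies the other chain of type I collagen, was below 5.11 on every array: its 3 probe sets ran from 3.50 to 4.67, and its representative read 4.60, 4.40 and 4.33 over the KHOS arrays and 4.43, 4.56 and 4.67 over the U-2OS arrays. The 5 probe sets of COL3A1, the type III chain of soft tissues, ran from 3.11 to 4.09, and the 2 of COL2A1, the cartilage chain, from 3.66 to 4.31. A low value on one probe set cannot be set against another gene's, since probes differ in how well they bind. Below the filter these values do not separate little message from a probe set that binds poorly.

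COL27A1, a fibrillar chain of cartilage, read 8.72, 8.34 and 8.30 over the KHOS arrays and 8.91, 8.89 and 9.07 over the U-2OS arrays. Its fitted difference was -0.50 ± 0.16 (adjusted p = 0.041). Its other probe sets at the level of the filter gave -0.11, -0.32 and -0.14, none called in the fit of all probe sets. The mean over its probe sets gave -0.24 (adjusted p = 0.145), and the call was not kept. COL11A2, a type XI chain, read 6.42, 6.24 and 6.23 over the KHOS arrays and 6.61, 6.86 and 6.64 over the U-2OS arrays. Its lines did not overlap, but the difference of -0.41 ± 0.15 did not pass (adjusted p = 0.060). COL11A1, its partner in type XI collagen, had a mean under the filter, with the U-2OS control array alone above it. It read 3.70, 3.89 and 3.77 over the KHOS arrays and 6.21, 4.80 and 4.53 over the U-2OS arrays. All U-2OS arrays were the higher, the control most of all, and in the fit without the filter the difference was -1.39 (adjusted p = 0.013).

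Among the 6 basement membrane genes, COL4A5 was higher in KHOS, COL4A2 was called lower there on its representative probe set alone, and COL4A1 did not pass. COL4A1 read 9.27, 9.26 and 9.11 over the KHOS arrays and 10.99, 8.87 and 8.79 over the U-2OS arrays. The U-2OS control array stood above all others and the U-2OS vector arrays below all others, so the lines changed order with treatment. The fitted line difference was -0.34 ± 0.41 (95% interval -1.32 to 0.65; adjusted p = 0.51). COL4A2, the partner chain, read 9.90, 9.73 and 9.52 over the KHOS arrays and 11.53, 10.46 and 10.30 over the U-2OS arrays. Here all U-2OS arrays lay above all KHOS arrays, and the fitted difference was -1.04 ± 0.21 (adjusted p = 0.0073). A second COL4A2 probe set gave 0.76 in the opposite direction (adjusted p = 0.050 over all probe sets), and the mean over both probe sets gave -0.14 (adjusted p = 0.60), so the direction of COL4A2 depended on the probe set. COL4A5, a chain of the kidney and skin type IV networks, read 6.65, 6.35 and 6.60 over the KHOS arrays and 5.08, 4.54 and 4.93 over the U-2OS arrays. It was 3.21-fold higher in KHOS, by 1.68 ± 0.14 (adjusted p = 0.00023). COL4A3, COL4A4 and COL4A6 lay below the filter and did not pass without it.

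All 3 type VI chains tested were higher in KHOS on their representative probe sets. COL6A3 read 12.92, 12.98 and 12.71 over the KHOS arrays and 11.08, 9.78 and 9.57 over the U-2OS arrays. The gap was narrowest between the control arrays and wider between the vector arrays, with no overlap. The fitted difference was 2.73 ± 0.28, or 6.64-fold (adjusted p = 0.00051). COL6A1 read 10.52, 10.29 and 10.27 over the KHOS arrays and 9.89, 9.12 and 9.33 over the U-2OS arrays (difference 0.91 ± 0.16, adjusted p = 0.0042). COL6A2 read 6.21, 6.48 and 6.18 over the KHOS arrays and 5.70, 5.77 and 5.65 over the U-2OS arrays (difference 0.59 ± 0.14, adjusted p = 0.013). The other COL6A2 probe set at the level of the filter was lower in KHOS, at -0.50 (adjusted p = 0.025 over all probe sets), so the direction of COL6A2 depended on the probe set. Of the 4 other COL6A1 probe sets at that level, 1 gave 0.93 and 3 ran from -0.37 to -0.06. COL6A3 has 1 probe set here. With the mean over all probe sets of a gene the difference was 0.13 for COL6A1 (adjusted p = 0.34) and 0.04 for COL6A2 (adjusted p = 0.76), and neither call was kept.

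Of the 5 FACIT chains tested, 4 were lower in KHOS and 1 higher, where 24.5% of all genes were lower and 30.3% higher; whether this class differs from the type VI chains was not tested. COL12A1, which coats type I fibrils in tendon, bone surface and ligament, read 5.30, 5.07 and 5.66 over the KHOS arrays and 9.34, 8.01 and 7.67 over the U-2OS arrays. The lines were far apart at every treatment, and KHOS was 7.98-fold lower (-3.0 ± 0.36, adjusted p = 0.00087). COL16A1 read 4.70, 4.5 and 4.79 over the KHOS arrays and 7.93, 6.66 and 6.87 over the U-2OS arrays, 5.62-fold lower in KHOS (-2.49 ± 0.25, adjusted p = 0.00044). COL22A1, a chain of tissue junctions, read 5.15, 5.0 and 5.25 over the KHOS arrays and 6.51, 5.73 and 5.48 over the U-2OS arrays (-0.78 ± 0.23, adjusted p = 0.028). The type IX chains of cartilage went in opposite directions. COL9A3 read 6.25, 6.45 and 5.93 over the KHOS arrays and 4.33, 4.18 and 4.48 over the U-2OS arrays, 3.68-fold higher in KHOS (1.88 ± 0.19, adjusted p = 0.00046). COL9A2 read 5.37, 5.56 and 5.42 over the KHOS arrays and 5.53, 6.27 and 6.07 over the U-2OS arrays, where the U-2OS control array lay within the KHOS range (-0.51 ± 0.17, adjusted p = 0.040).

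Of the remaining chains, COL13A1, a transmembrane collagen at sites of cell adhesion, read 10.64, 9.87 and 9.77 over the KHOS arrays and 8.64, 7.93 and 7.76 over the U-2OS arrays. The lines did not overlap, and KHOS was 3.95-fold higher (1.98 ± 0.14, adjusted p = 0.00010). Its 2 other probe sets gave smaller differences in the same direction, 0.47 (adjusted p = 0.13 over all probe sets) and 0.54 (0.028), and the mean over probe sets gave 1.0. COL7A1, the anchoring fibril chain under epithelia, read 8.07, 8.15 and 7.95 over the KHOS arrays and 6.88, 7.07 and 7.42 over the U-2OS arrays (0.93 ± 0.18, adjusted p = 0.0056). Its other probe set gave 2.63 in the same direction. COL18A1, the source of endostatin, read 7.66, 7.74 and 7.58 over the KHOS arrays and 6.69, 6.44 and 7.46 over the U-2OS arrays (0.80 ± 0.24, adjusted p = 0.029). The U-2OS miR-1 array was close to the KHOS arrays and the other U-2OS arrays were not. COL26A1 read 5.54, 5.58 and 5.40 over the KHOS arrays and 6.10, 6.11 and 6.23 over the U-2OS arrays (-0.64 ± 0.15, adjusted p = 0.011). COL23A1, a transmembrane chain, stayed between 5.0 and 5.33 on all 6 arrays (-0.08 ± 0.15, adjusted p = 0.65).

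Of the 21 chains below the level filter, 4 passed between the lines in the fit without it, all lower in KHOS. They were COL11A1, given above, and COL8A1, COL20A1 and COL6A6. Dropping the filter took the calls over all genes from 3928 higher and 3175 lower in KHOS to 4112 and 3994. The lower calls thus rose more than the higher ones over all genes too. COL8A1, a short chain of endothelial and corneal matrix, read 3.55, 3.57 and 3.70 over the KHOS arrays and 4.94, 4.08 and 4.37 over the U-2OS arrays (-0.86, adjusted p = 0.011). All U-2OS arrays were the higher, again with the control the highest. COL20A1 (-0.47, adjusted p = 0.041) and COL6A6 (-0.40, adjusted p = 0.045) differed by less, at values from 4.53 to 5.27 and from 3.31 to 3.89. COL10A1, the chain of hypertrophic cartilage, did not exceed 5.38 on any array, and its 2 probe sets went as low as 3.18.

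**Figure D2:**
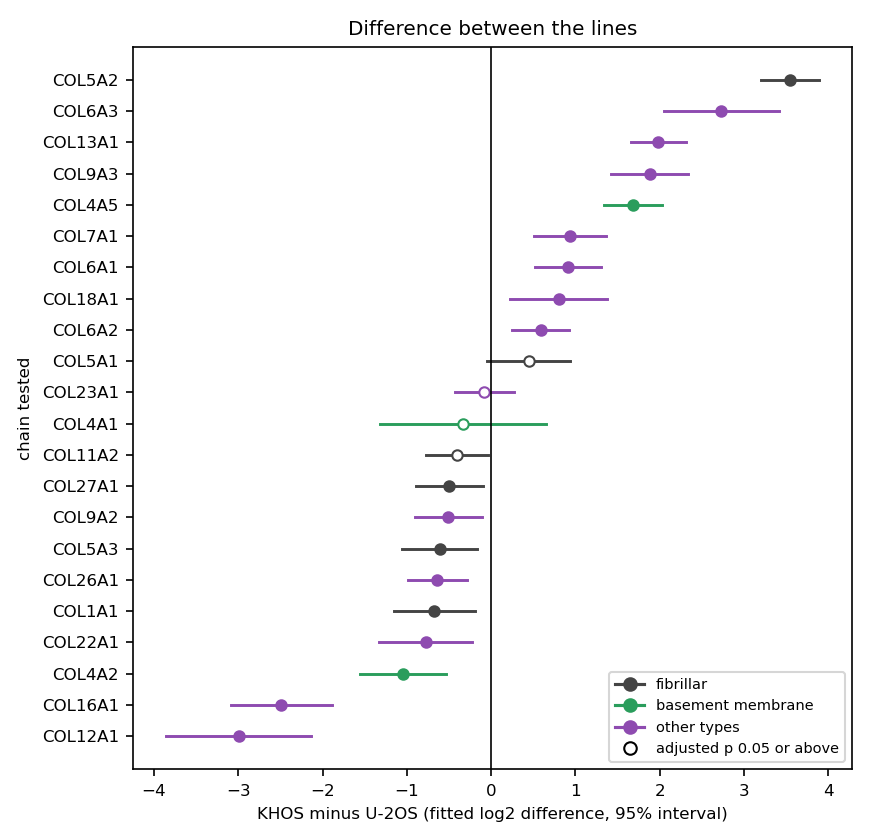
Fitted log2 difference KHOS minus U-2OS for the 22 chains tested, with 95% intervals, coloured by class; open points did not pass the adjusted p of 0.05. The points run from COL12A1 at -3.0 to COL5A2 at 3.55, and each class has points on both sides of 0.

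These p-values measure how far the line difference varies over the treatments, with 1 pooled array each, and not the spread between cultures. Leaving out the miR-null array of either line, which removes that treatment from the comparison of lines, left 10 of 22 chains called and 34.5% of all genes. The 8 lost were COL1A1, COL5A3, COL27A1, COL22A1, COL26A1, COL9A2, COL6A2 and COL18A1. Quantile normalization, which gives all arrays one distribution, moved the median line difference of all genes tested from -0.00 to -0.17, and the calls from 3928 higher and 3175 lower to 3101 higher and 4194 lower. The chains went from 9 higher and 9 lower to 7 and 10, with COL18A1 (0.50, adjusted p = 0.16) and COL7A1 (0.58, adjusted p = 0.056) no longer called. None of the 18 called chains changed direction with that normalization.

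With either vector, COL5A2 fell in both lines. Arrays with miR-null and miR-1 were set together against the control arrays, with the line as a term. COL5A2 was the only chain of 22 to pass, 4.55% where 0.478% of all genes passed in either direction and 0.123% were lower. The values given above fall from 10.12 to 8.66 and 8.70 in KHOS, and from 6.55 to 4.98 and 5.30 in U-2OS. Within each line both vector arrays lay well below the control, and they lay close together. The fitted change was -1.42 ± 0.14 (95% interval -1.75 to -1.10), or 2.68-fold lower (adjusted p = 0.016). It was -1.44 within KHOS and -1.41 within U-2OS, 2.71-fold and 2.66-fold lower, each against 1 control array. The U-2OS miR-null value lay below the level of the filter, so the U-2OS fold may be too small. In bulk RNA, fewer cells with a message and less of it per cell cannot be told apart. The second COL5A2 probe set read 8.90, 7.81 and 7.67 over the KHOS arrays and 5.56, 4.26 and 4.32 over the U-2OS arrays, a change of -1.21 that also passed in a fit of all probe sets (adjusted p = 0.019). The call was lost with similar changes when the KHOS miR-1 (-1.43, adjusted p = 0.085), KHOS miR-null (-1.42, adjusted p = 0.084) or U-2OS miR-null array (-1.36, adjusted p = 0.097) was left out. In each of these fits 0 of 12958 genes passed, so the loss was not particular to COL5A2.

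On their representative probe sets COL13A1 and COL1A1 also read lower on both vector arrays in both lines, without passing. COL13A1 changed by a fitted -0.81 ± 0.13 (adjusted p = 0.052; -0.83 in KHOS, -0.79 in U-2OS), and passed when no level filter was used, where 2 of 43 chains passed and 0.521% of all genes. Its 2 other probe sets changed by -0.56 and -0.36 in KHOS but by 0.32 and -0.05 in U-2OS. COL1A1 changed by -1.18 ± 0.21 (adjusted p = 0.061; -0.82 in KHOS, -1.53 in U-2OS). Its other probe sets that reach the median were split, at 0.29, -0.93 and 0.12. The other low values, with the adjusted p in parentheses, were COL4A1 at -1.12 (0.19), COL6A3 at -0.74 (0.21), COL12A1 at -0.72 (0.30), COL4A2 at -0.71 (0.13) and COL5A1 at -0.69 (0.13). The highest were COL9A2 at 0.38 ± 0.16 (adjusted p = 0.25), COL7A1 at 0.17 and COL18A1 at 0.13. Over the 22 chains the median vector change was -0.36, where the median of all genes tested was -0.03. Over all 43 chains it was -0.03 against 0.01 for all 19775 genes. The 21 chains below the filter had median vector changes of -0.02 in KHOS and 0.13 in U-2OS.

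**Figure D3:**
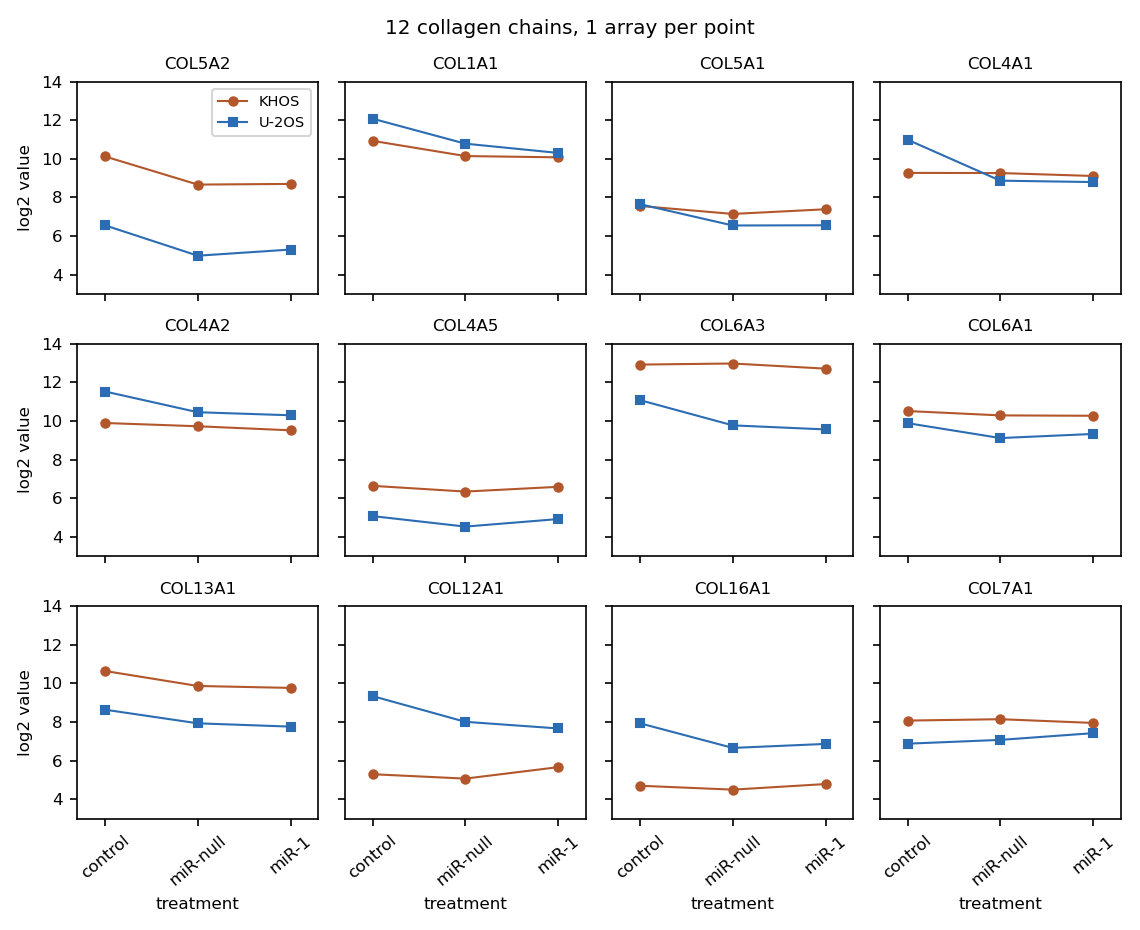
Log2 values of 12 collagen chains, 1 point per array, by treatment, with KHOS as circles and U-2OS as squares. On the representative probe sets plotted, COL5A2 and COL13A1 are lower with either vector in both lines, while COL4A1 and COL6A3 are lower with either vector in U-2OS and nearly level in KHOS.

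Within U-2OS many chains read lower with the vectors, and within KHOS few did. A chain was counted when both vector arrays differed from their control by 1.2-fold or more, which has no test since each line has 1 control array. In U-2OS 11 of 22 chains were lower (background 28% of genes) and 1, COL9A2, was higher (background 12.9%). On the representative probe sets the 11 were COL1A1, COL5A1, COL5A2, COL4A1, COL4A2, COL6A1, COL6A3, COL12A1, COL13A1, COL16A1 and COL22A1. The other COL6A1 probe sets at the level of the filter were split in U-2OS, at -0.52, 0.14, 0.44 and 0.36. In KHOS 4 were lower, COL5A2, COL1A1, COL13A1 and COL27A1 (background 10.6%), and 0 were higher (background 15.8%). On the representative probe sets COL5A2, COL1A1 and COL13A1 were lower in both lines, 3 of 22 chains against a background of 6.2%. After quantile normalization the counts were 11 lower and 3 higher in U-2OS (17.5% and 20.8% of genes) and 5 lower and 0 higher in KHOS (13.2% of genes either way).

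The line difference in the vector change, KHOS change minus U-2OS change, passed for COL4A1 and COL6A3. They were 2 of 22 chains, 9.09%, where 2.28% of all genes passed and 2% in this direction. COL4A1 went from 10.99 in U-2OS control to 8.87 and 8.79 with the vectors, a change of -2.16 (4.45-fold lower). In KHOS it went from 9.27 to 9.26 and 9.11, a change of -0.08. The difference of 2.07 ± 0.24 passed (adjusted p = 0.0090). A second COL4A1 probe set read 6.95, 6.83 and 6.83 over the KHOS arrays and 8.51, 6.97 and 6.98 over the U-2OS arrays, with 1 array, the U-2OS control, above the rest (difference 1.41, adjusted p = 0.044 over all probe sets). COL6A3 went from 11.08 to 9.78 and 9.57 in U-2OS, a change of -1.41 (2.66-fold lower), and from 12.92 to 12.98 and 12.71 in KHOS, a change of -0.08. Its difference was 1.33 ± 0.27 (adjusted p = 0.048), and it did not pass without the level filter (adjusted p = 0.051).

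Other chains had a difference in the same direction without passing, given with the adjusted p in parentheses: COL12A1 at 1.57 (0.065), COL16A1 at 1.11 (0.072), COL4A2 at 0.88 (0.10), COL22A1 at 0.88 (0.12), COL5A1 at 0.80 (0.12) and COL1A1 at 0.71 (0.22). COL1A1 was not level in KHOS, where it changed by -0.82, and its other probe sets that reach the median gave -0.32, 1.11 and -0.02. The other COL5A1 probe sets gave 0.13 and -0.32, with KHOS changes of -0.87 and -0.53. For COL12A1 a second probe set read 3.85, 5.09 and 5.99 over the KHOS arrays and 7.97, 7.24 and 6.68 over the U-2OS arrays, higher with the vectors in KHOS and lower in U-2OS. COL11A1, under the level filter, changed by -1.55 in U-2OS and 0.13 in KHOS, and passed without the filter (1.67, adjusted p = 0.022), when 2 of 43 chains passed and 1.39% of genes. The lowest differences were COL9A2 at -0.52, COL27A1 at -0.46 and COL5A3 at -0.41, with adjusted p from 0.27 to 0.44. COL5A2 had a difference of -0.03 ± 0.26 (adjusted p = 0.97) and COL13A1 of -0.04 ± 0.24 (adjusted p = 0.95). A p above the threshold does not show that the lines changed alike.

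The calls for COL4A1 and COL6A3 depended on the scaling, and were also lost when either KHOS vector array was left out. With quantile normalization the median of this difference over all genes went from 0.14 to -0.05 and the calls from 259 higher and 37 lower to 11 and 4. COL4A1 then stood at 1.75 (adjusted p = 0.063) and COL6A3 at 1.09 (adjusted p = 0.13). Without the KHOS miR-1 array the differences of COL4A1 and COL6A3 were 2.15 and 1.46. Without the KHOS miR-null array they were 2.00 and 1.20. Each of these fits keeps 1 KHOS vector array and called few genes of any kind, so the loss was not particular to these chains. Each line has 1 control array, and array controls moved with treatment. Mean signal of 18 spike-in probe sets was higher on the vector arrays by 0.27 in KHOS and 0.68 in U-2OS. The 28S ribosomal probe set was higher by 0.60 and 0.93. The interquartile range changed by 0.10 and -0.28, and the actin 3′ minus 5′ difference by 0.22 and 0.17. Of the cell type markers, RUNX2 changed by 0.86 in KHOS and by -2.27 in U-2OS, SPP1 by 0.10 and 2.14, and PECAM1 by -0.40 and 0.81. All 3 passed for the line difference (adjusted p = 0.0062, 0.047 and 0.040). The part of these in the chains' changes was not tested.

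**Figure D4:**
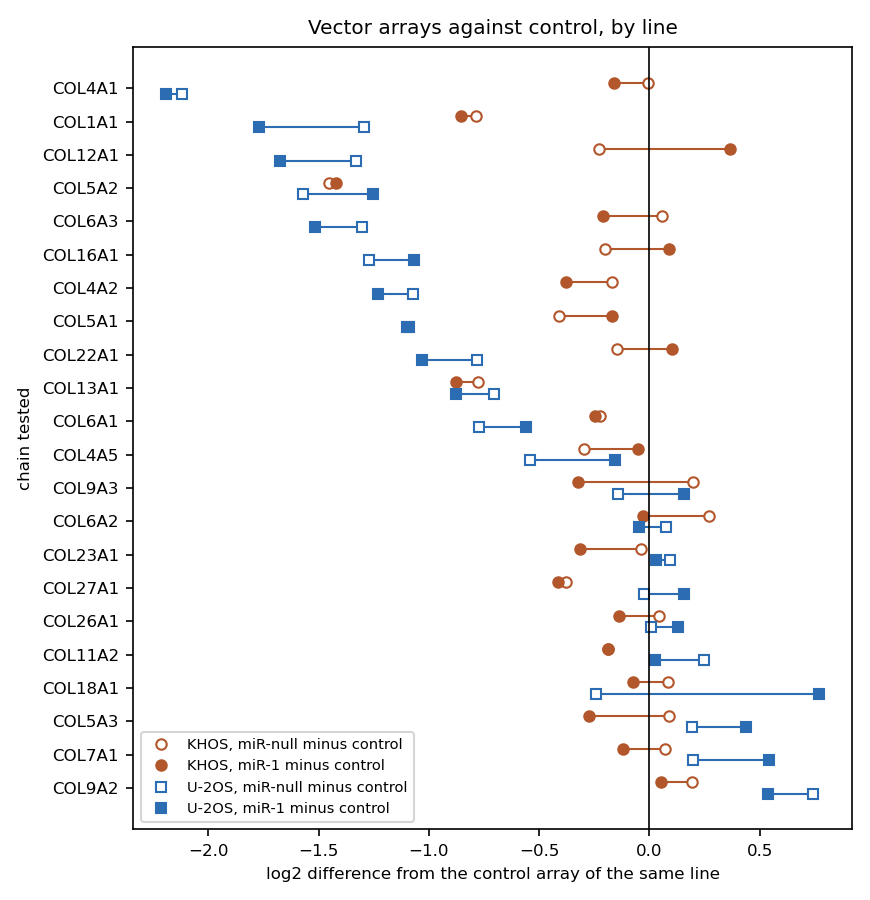
Log2 difference of each vector array from the control array of its line, for the 22 chains tested, ordered by the U-2OS change; circles are KHOS and squares U-2OS, open for miR-null and filled for miR-1. The mean of the U-2OS pair runs from -2.16 for COL4A1 to 0.64 for COL9A2, and the lowest KHOS mean is -1.44 for COL5A2.

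The miR-null vector by itself, against control, gave no called chain and no called gene (0% of 12958 genes). At an unadjusted p below 0.05 in limma there were 7 chains and 1263 genes. The lowest fitted changes were COL5A2 at -1.51, COL4A1 at -1.06 and COL1A1 at -1.04. The highest were COL9A2 at 0.47, COL6A2 at 0.17 and COL5A3 at 0.14. Without the KHOS control array, when the change rests on U-2OS, 12 of 22 chains passed, 11 lower and COL9A2 higher, and 10.4% of all genes passed.

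The study's question was what miR-1 changes, and no collagen chain was called between miR-1 and miR-null. By limma 0 of 22 chains passed, with 0% of all genes, and 0 chains and 78 genes had an unadjusted p below 0.05. The miR-null, miR-1 and combined vector comparisons share arrays, so they are not separate evidence. The chain differences ran from -0.27 ± 0.25 for COL1A1 (95% interval -0.87 to 0.32) to 0.43 ± 0.29 for COL18A1 (-0.28 to 1.13). COL5A2 differed by 0.18 (-0.25 to 0.60), COL6A3 by -0.24 (-1.07 to 0.60) and COL4A1 by -0.11 (-1.32 to 1.10). The interval for COL4A1 includes a 2-fold change in either direction and that for COL6A3 a 2-fold lower value, so responses of that size are not excluded by these arrays. The other high values were COL4A5 at 0.32 and COL16A1 at 0.25, and the other low one was COL6A2 at -0.21. The median was -0.04 over the chains tested and -0.04 over all genes tested. COL18A1 differed by 1.01 between the U-2OS vector arrays and by -0.16 between the KHOS ones, so its value came from the single U-2OS miR-1 array. For COL12A1 the KHOS difference was 0.59 and the U-2OS difference -0.34, and for COL9A3 they were -0.52 and 0.30. The exact Mann-Whitney test named in the design text called 0 chains in the 4 comparisons it was run on, and cannot go below p = 0.10 between lines, 0.133 for vectors or 0.333 for the others.

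Chains whose genes are neighbours were set side by side, with positions from RefSeq. COL4A1 and COL4A2, whose starts are 126 bases apart (sequence above), changed with the vectors by -2.16 and -1.15 in U-2OS and by -0.08 and -0.27 in KHOS. On their representative probe sets both were highest in the U-2OS control, but on the second COL4A2 probe set the KHOS control was the highest, at 6.86 against 6.73. COL4A5 and COL4A6 start 379 bases apart on chromosome X, and COL4A5 was higher in KHOS while COL4A6 was below the filter. COL5A2 lies 19151 bases from COL3A1 on chromosome 2, and COL3A1 stayed between 3.84 and 4.09 on its representative probe set while COL5A2 ranged from 4.98 to 10.12. COL6A1 and COL6A2, 93063 bases apart on chromosome 21, were both higher in KHOS on their representative probe sets.

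The pattern of COL5A2 over the 6 arrays, after each line's mean was subtracted, was most like those of NPM3 (Pearson r = 0.9993), PDLIM2 (0.9991), MCM3 (0.9987), CDC123 (0.9981) and PHF19 (0.9970). The vector changes of these genes were smaller, from -0.21 for CDC123 to -0.66 for MCM3. The 6 points hold 1 strong contrast, control against vector, and 32 of 12957 genes had r above 0.99, so r describes the shape and no more. Among chains COL13A1 came next to COL5A2 (r = 0.961), then COL6A1 (0.895) and COL1A1 (0.888).

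Proteins that make and handle collagen were described from lists. Of 18 procollagen modifying and folding genes tested, 4 were higher and 6 lower in KHOS, 55.6% called where 54.8% of all genes were. SERPINH1, the collagen chaperone, was lower by a fitted -2.21 ± 0.14, and read 8.33, 8.10 and 8.12 over the KHOS arrays and 10.70, 10.24 and 10.24 over the U-2OS arrays. P4HA2, a prolyl hydroxylase subunit, differed by -2.97 ± 0.19, P3H3 by -1.58 and P3H2 by 1.49. None was called with the vectors, where 15 of 18 values were negative, with a median of -0.24 against -0.03 for all genes tested. The largest were P3H2 at -0.72 (adjusted p = 0.14) and P3H4 at -0.68 (0.13).

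Of 14 export, cleavage and cross-linking genes tested, 4 were higher and 3 lower in KHOS, 50% called against the 54.8% of all genes. PCOLCE2, an enhancer of propeptide cleavage, differed by -2.0, its relative PCOLCE by 1.13, the lysyl oxidase LOXL4 by -1.44 and the coat protein SEC24D by 0.67. None was called with the vectors, where ADAMTS3 and LOXL1 both stood at -1.01 (adjusted p = 0.16 and 0.13). LOXL1, a lysyl oxidase, passed for the line difference in the vector change (1.48, adjusted p = 0.027; -1.75 in U-2OS, -0.27 in KHOS). Of 8 collagen receptor genes tested, 3 were higher and 2 lower in KHOS (62.5% called). The integrin chains ITGA1, ITGA2 and ITGA10 were higher by 3.17, 2.26 and 0.75, and the kinase receptor DDR2 differed by -1.17. None of the 8 was called with the vectors, where MRC2 at -0.58 (adjusted p = 0.12) and ITGA1 at -0.29 (0.45) were the largest. Of 9 fibril-binding genes tested, THBS1 (1.35) and BGN (0.68) were higher and SPARC (-0.66) and FBLN1 (-0.46) lower in KHOS (44.4% called). None was called with the vectors, where THBS1 at -1.45 (adjusted p = 0.098) and FBLN1 at -0.74 (0.058) were the largest. FN1, the fibronectin gene, and THBS1 passed for the line difference in the vector change. FN1 changed by 0.78 in KHOS and -1.50 in U-2OS (adjusted p = 0.012), and THBS1 by -0.60 and -2.31 (adjusted p = 0.049).

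Of the chains, 35 had 2 or more probe sets, and 15 had 2 or more that reach the median level. The sign of the line difference was the same on all of these for 12 of the 15 chains, the exceptions being COL4A2, COL6A1 and COL6A2. The sign of the vector change was the same for 9 of the 15 in KHOS and 8 of the 15 in U-2OS. For COL4A1 and COL5A2 both probe sets gave the same directions in each of these comparisons.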

How the data were processed

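Per the labels, total RNA of KHOS and U-2OS cells was hybridized to U133 Plus 2.0 arrays, with control, miR-null and miR-1 as treatments and 1 array each. The authors made the deposited log2 values with RMA in Qlucore, per the series design text, and the submitters' processing notes name RMA too. Pooling 3 flasks per array removes culture spread, and RMA compresses differences near the floor, so low chains show less change than they may have.

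Of 54675 probe sets, 62 controls were left out, and 41091 carried 1 symbol, 1801 several and 11721 none. The values were fitted as deposited in limma 3.58.1 (R 4.3.3; lmFit, eBayes), with p-values adjusted by Benjamini-Hochberg over 12958 genes. Line and treatment were additive for the line, miR-null and miR-1 differences. Vector against control used line and vector, and the line difference in the vector change used their interaction. Intervals are 95% intervals of the fit, scripts were tested on simulated data, and the number of arrays limits precision. No line and treatment had a replicate, so no p-value measures replicate spread, and array noise cannot be told from effects left out of a fit. In the additive fits the spread is how far treatment differences vary between the lines. In the interaction fit it is the difference of miR-1 from miR-null within each line. The fit of vector against control holds that difference and the line difference in the vector change. Alternatives were quantile normalization, other level filters, the mean over probe sets, all probe sets, a prior variance that follows the mean, each array left out, and the Mann-Whitney test. Chains and lists were chosen with earlier results of these data known. Named were all called chains, the 3 highest and 3 lowest of each comparison, 13 chains whatever their values, up to 4 called genes per other list or else the 2 largest, and the 5 genes most like COL5A2. Gene names come from GEO's array annotation, and 41037 probe sets matched RefSeq by Entrez identifier with 0 symbols changed. Sequences were copied from RefSeq tables, GRCh38.p14. COL17A1 was not analysed here.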

Additional observations from a re-analysis of the deposited data

Results flagged for a closer look

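Between the lines, the change with the vectors differed for 2 chains by an interaction term in limma. For COL4A1 the KHOS change minus the U-2OS change was 2.07 (adjusted p = 0.0090), from a KHOS change of -0.08 and a U-2OS change of -2.16. For COL6A3 it was 1.33 (adjusted p = 0.048), from changes of -0.08 and -1.41. Among all genes tested 2.28% differed in this way. Neither call was kept after quantile normalization or when either KHOS vector array was left out. That of COL6A3 was also lost in limma without the level filter (adjusted p = 0.051).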

How the results depend on the processing

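On the representative probe sets no called line difference changed direction, but other probe sets of COL4A2, COL6A1 and COL6A2 had the opposite sign. The 18 calls between lines, of 22 chains, stood where 54.8% of all genes passed. They became 9 of the 11 chains that the 75th percentile filter leaves, where 59.7% of all genes passed. With the mean over probe sets 11 of 19 chains passed, close to the share of all genes, 55.5%. With an array left out the count ran from 10 to 20, where 34.5% to 67.6% of all genes passed. The exact Mann-Whitney test called 0. The 1 vector call, COL5A2, stood where 0.478% of all genes passed. It became 3 calls with the 75th percentile filter (adding COL1A1 and COL13A1), where 4.89% of all genes passed. The count was 2 with no filter (0.521% of genes), 3 when the prior variance followed the mean (4.54%) and 0 by the Mann-Whitney test. With a vector array left out it was 0 or 1, where 0% to 0.162% of all genes passed. With a control array left out, the comparison rests on 1 control array. The 2 calls of the line difference in the vector change became 4 with that prior (adding COL12A1 and COL4A2), 0 after quantile normalization, and from 0 to 7 with an array left out, 7 being without U-2OS miR-null, where 11.8% of all genes passed. Over all genes, the share passing for that difference went from 2.28% to 6.66% with that prior, and to 0.116% after quantile normalization. The rise and the loss were thus not particular to the chains. That difference had no value without a control array or by the Mann-Whitney test. The count for miR-null ran from 0 to 12 with an array left out, and that for miR-1 was 0 in every setting run.

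Values that changed sign had not passed, and the cause was not tested. With an array left out, the vector change ran from -0.102 to 0.332 for COL18A1 and from -0.0247 to 0.370 for COL7A1. The miR-null change of COL5A3 ran from -0.0629 to 0.344, and was -0.0144 with the mean over probe sets. The difference of miR-1 from miR-null ran from -0.604 to 0.0599 for COL1A1, from -0.591 to 0.1165 for COL6A3, from -0.0611 to 0.557 for COL16A1 and from -0.0778 to 0.932 for COL18A1. Signal near the floor limits the 21 chains under the level filter. It also limits COL9A3 and COL4A5 in U-2OS and COL16A1 in KHOS, and, with miR-null, COL5A2 in U-2OS and COL12A1 in KHOS.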
